A study of Mus musculus with 8 samples.

Results

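The 9 kallikrein genes Klk5, Klk6, Klk7, Klk8, Klk9, Klk10, Klk11, Klk13 and Klk14, together with Spink5, were examined in cultured mouse keratinocytes (KCs), the epithelial cells of the epidermis. These 10 of the 41457 listed genes were selected on measured values of the same data, namely their levels after 1 week against 3 weeks of culture and their agreement among the 1-week samples. Those values are therefore given here as a description, without a test. All 10 genes were found in each of the 8 deposited gene tables.

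The KCs came from the tail epidermis of adult wild-type mice, C57BL/6 in the labels and C57BL/6J in the paper, and were not treated. They were grown on plates in a serum-free medium with little calcium and were split when nearly confluent. RNA was sequenced as poly(A) libraries from 4 samples at 1 week and 4 samples at 3 weeks, which the series describes as independent experiments. By the paper, the same batches of KCs were taken at both times. The libraries held 13896807 to 20026084 exon reads at 1 week and 14096649 to 18127283 at 3 weeks.

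Kallikrein-related peptidases are secreted serine proteases. In the epidermis they are made as inactive precursors, mainly by KCs of the granular layer, and become active in the extracellular space of the cornified layer. There they cut the proteins that hold corneocytes together, so that the outermost cells can be shed. Klk5, a trypsin-like protease, can activate itself as well as Klk7 and Klk14, and Klk7 is a chymotrypsin-like protease. Spink5 encodes LEKTI, a secreted multi-domain inhibitor of Klk5, Klk7 and Klk14, whose loss in humans causes Netherton syndrome.

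The 9 kallikreins lie in a cluster on the plus strand of chromosome 7, from 43690418 to 43851181 on GRCm38, a span of 160.8 kb. In order of position they are Klk14, Klk13, Klk11, Klk10, Klk9, Klk8, Klk7, Klk6 and Klk5. Klk12, which had almost no reads, lies between Klk13 and Klk11. The long processed transcript 2310002F09Rik runs on the opposite strand from 43695209 to 43797958. Klk9, Klk10, Klk11 and Klk13 lie fully within its span, and it covers Klk8 and Klk14 in part. The coordinates of all 10 genes in the deposited tables equalled those of a GRCm38 annotation.

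The promoter windows of Klk9, Klk8 and Klk7 are shown because these 3 neighbours within the cluster differed in how far their levels changed between the times. Klk8 changed little, whereas Klk7 and Klk9, on either side of it, were lower at 3 weeks in every sample. Each window holds the 250 bases before the start site on the plus strand, from RefSeq on GRCm38.p6, and capitals mark the CG dinucleotides. The windows are chr7:43791641-43791890 for Klk9, chr7:43797327-43797576 for Klk8 and chr7:43811044-43811293 for Klk7.
Klk9: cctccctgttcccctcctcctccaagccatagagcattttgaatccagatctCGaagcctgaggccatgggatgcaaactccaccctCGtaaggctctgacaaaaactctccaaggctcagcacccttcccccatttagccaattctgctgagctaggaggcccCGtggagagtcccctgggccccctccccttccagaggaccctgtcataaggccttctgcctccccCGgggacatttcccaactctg
Klk8: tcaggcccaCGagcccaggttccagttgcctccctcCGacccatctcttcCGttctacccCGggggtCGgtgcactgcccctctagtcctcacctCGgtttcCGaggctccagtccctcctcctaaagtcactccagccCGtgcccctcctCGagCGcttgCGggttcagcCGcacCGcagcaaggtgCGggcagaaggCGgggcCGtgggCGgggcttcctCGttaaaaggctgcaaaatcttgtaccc
Klk7: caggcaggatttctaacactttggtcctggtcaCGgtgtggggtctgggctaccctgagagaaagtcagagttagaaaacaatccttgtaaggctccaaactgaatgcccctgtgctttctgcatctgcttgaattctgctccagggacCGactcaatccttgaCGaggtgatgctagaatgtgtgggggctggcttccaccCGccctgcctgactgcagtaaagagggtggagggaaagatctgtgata
The Klk8 window held 18 CG dinucleotides and 65.2% G and C, against 4 CG dinucleotides in each of the other two. The other 8 kallikrein windows held between 0 and 7, while the median of all 32851 promoter windows was 6, with quartiles of 2 and 16. The AT-rich word TTAAAA was found in 3 of the 9 kallikrein windows and in 17.7% of all windows. In Klk8 it lay 26 bases and in Klk10 17 bases before the start. The words TATAAA (12.4% of all windows), TGANTCA (6.75%) and AACNNGTT (3.64%) were in none of the 9 windows. TGGAAA, the core of NFAT sites, was in the Klk11 window alone, against 18.6% of all windows. CACCC was in 8 of the 9 windows, all but that of Klk8, and in 52.0% of all windows. Both strands were searched, and such matches describe the letters only.

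Levels are given as RPKM, which relates the exon reads of a gene to its exon length and to the depth of the library. Log2 fold changes, 3 weeks over 1 week, are from an edgeR quasi-likelihood fit to the exon reads of 12590 genes with enough reads, after TMM normalization, which adjusts for the composition of the libraries. Their standard error (SE) was derived from the F statistic of this fit, which draws on the variance of all genes in the fit. Each group held 4 samples. Of the 10 genes, 7 had enough reads to enter this fit, while Klk5, Klk13 and Klk14 did not.

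Klk7 differed most between the times. At 1 week its RPKM values in replicates 1 to 4 were 9.01, 5.05, 74.5 and 134.4, whereas the 3-week samples had 0.991, 1.32, 1.90 and 0.503. All 4 samples of 1 week lay above all 4 of 3 weeks, but the 1-week samples themselves ranged over 26.6-fold. The mean was 55.8 ± 61.4 (SD, n = 4) at 1 week and 1.18 ± 0.584 at 3 weeks, and the log2 fold change was -5.37 (SE 1.10).

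Klk10 was among the most abundant kallikreins at 1 week. It had RPKM values of 39.9, 21.8, 91.2 and 118.3 at 1 week and of 6.06, 10.5, 9.58 and 9.52 at 3 weeks. The groups did not overlap, and the 3-week samples lay close together. The means were 67.8 ± 44.7 and 8.90 ± 1.95, with a log2 fold change of -2.76 (SE 0.50).

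Klk9 showed the same separation at a lower level. The 1-week values were 2.10, 1.48, 9.25 and 17.9 RPKM and those of 3 weeks 0.545, 1.07, 0.825 and 0.415. The lowest 1-week sample thus still exceeded the highest 3-week sample. The log2 fold change of Klk9 was -3.24 (SE 0.81). Klk7, Klk9 and Klk10 were the 3 of the 10 genes that were lower at 3 weeks without overlap between the groups, on RPKM and on TMM-normalised counts scaled to library size (CPM) alike. Over all tested genes 18.5% behaved in this way, and nothing is read from this share, since the same contrast selected the members.

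Klk6, a trypsin-like protease, did overlap. The 1-week samples had 3.58, 1.80, 31.0 and 50.7 RPKM, and the 3-week samples 2.77, 5.47, 4.10 and 1.80. Replicate 1 of 1 week lay within the range of the 3-week samples, replicate 2 lay just below it, and only replicates 3 and 4 stood above it. The log2 fold change was -2.44 (SE 0.95).

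Klk8, also known as neuropsin and likewise trypsin-like, was the kallikrein with the smallest difference. It had RPKM values of 63.4, 46.6, 94.7 and 110.9 at 1 week and of 64.7, 77.4, 60.7 and 44.6 at 3 weeks. The groups overlapped over most of their range. Its mean was 78.9 ± 29.2 at 1 week and 61.9 ± 13.6 at 3 weeks, and its log2 fold change of -0.19 was smaller than its SE of 0.28. Without replicate 4 of 1 week the log2 fold change was 0.02.

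Klk11, another trypsin-like member, had values of 4.22, 2.85, 7.93 and 11.7 RPKM at 1 week and of 0.366, 0.539, 0.456 and 4.87 at 3 weeks. The groups overlapped through replicate 4 of 3 weeks alone, which lay above replicates 1 and 2 of 1 week. The log2 fold change was -1.99 (SE 0.84) with all samples and -3.69 without this sample, and the 3-week mean without it was 0.454 ± 0.0868 (SD, n = 3).

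Klk5, the starting point of the protease cascade, was represented by 1, 5, 57 and 143 exon reads at 1 week and by 3, 3, 7 and 2 reads at 3 weeks. Klk13 had 3, 0, 16 and 49 reads at 1 week and 2, 0, 0 and 2 at 3 weeks, and Klk14 had 1, 0, 8 and 11 reads and 1, 0, 0 and 0. In all 3 genes most of the reads came from replicates 3 and 4 of 1 week. A count of 0 allows up to 3 reads, which equals 0.109 to 0.156 RPKM for Klk5, depending on the sample, 0.0634 to 0.0910 RPKM for Klk13 and 0.115 to 0.164 RPKM for Klk14. These floors cover counting error only. No fold change is given for the 3 genes.

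The inhibitor gene Spink5 lies on chromosome 18 (43963235 to 44022501). It had RPKM values of 4.43, 6.15, 19.3 and 32.9 at 1 week and of 6.21, 5.84, 3.31 and 58.7 at 3 weeks. The highest and the lowest of the 8 samples were both from 3 weeks, and replicate 4 of 3 weeks alone exceeded the whole 1-week range. The means were 15.7 ± 13.3 at 1 week and 18.5 ± 26.8 at 3 weeks, and the log2 fold change was 0.35 (SE 0.95). Without replicate 4 of 3 weeks it was -1.45 and the 3-week mean was 5.12 ± 1.58 (SD, n = 3), so that the sign of the Spink5 difference depended on this sample.

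**Figure D1:**
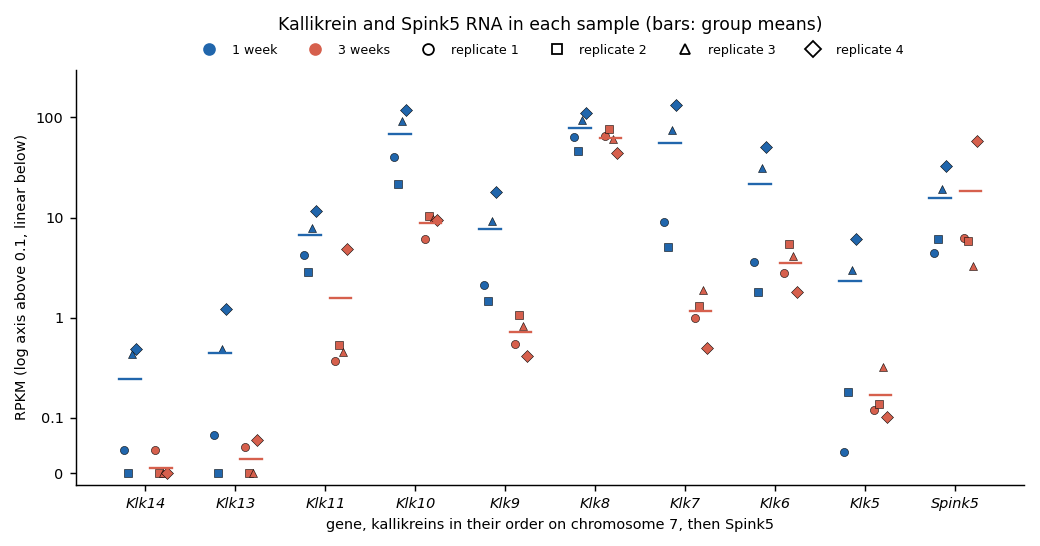
RPKM of the 9 kallikreins, in their order along chromosome 7, and of Spink5 in the 4 samples of 1 week (blue) and the 4 samples of 3 weeks (red), on an axis that is logarithmic above 0.1 and linear below. Symbols mark replicates 1 to 4 and bars the group means. In each gene the 1-week replicates 3 and 4 (triangle and diamond) lie above replicates 1 and 2, and replicate 4 of 3 weeks stands apart in Klk11 and Spink5.

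Of the 7 genes in the fit, 6 had a negative log2 fold change, that is, all but Spink5. The median of the 6 kallikreins was -2.60, while that of all 12590 tested genes was 0.03. Neither the count nor the median is a result, since the same contrast selected the members. On the RPKM scale without TMM, in a limma fit to log2(RPKM + 0.1), the median of all genes was -0.16. In that fit Klk8 (-0.30) and Klk11 (-2.63) had more negative values than in edgeR. Klk6 (-1.61), Klk7 (-4.49), Klk9 (-2.67) and Klk10 (-2.65) had less negative ones. Since these are bulk samples, fewer cells of a type and less RNA per cell cannot be told apart.

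The 1-week samples were ordered alike by the kallikreins and Spink5, which was part of the selection. In 8 of the 10 genes the order was replicate 2, then 1, then 3, then 4. In Klk5 and Spink5 it was 1, 2, 3 and 4. In all 10 genes replicate 4 was the highest and replicate 3 the next, on RPKM, on TMM-normalised CPM and in unique reads. At 3 weeks the order differed from gene to gene: replicate 4 was the lowest sample in Klk5, Klk6, Klk7, Klk8 and Klk9 but the highest in Klk11, in Spink5 and, on 2 reads, in Klk13. The SD of the log2 CPM over the 1-week samples was between 0.57 in Klk8 and 2.32 in Klk6. The median SD of the 7 tested members was 1.35, against 0.22 over all tested genes, and 6 of the 7 lay above the 95th percentile of all genes. Nothing is read from this comparison, since the values of these same 1-week samples were part of the selection. At 3 weeks the median was 0.72, against 0.34 over all tested genes, and 2 of the 7 members, Klk11 and Spink5, lay above the 95th percentile.

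Marker genes for the labelled cell type were abundant in all samples. The summed RPKM of 6 KC markers (Krt5, Krt14, Trp63, Cdh1, Itga6 and Itgb4) was between 12337 and 14500 at 1 week and between 7282 and 8446 at 3 weeks, and 2 of the 6, Krt5 and Itga6, were lower at 3 weeks in edgeR's test. The 5 melanocyte markers (Dct, Pmel, Mlana, Tyr and Tyrp1) summed to 4.76, 3.18, 15.4 and 20.9 RPKM in replicates 1 to 4 of 1 week and to 1.26, 5.50, 3.09 and 3.10 RPKM at 3 weeks. They were thus highest in the same 1-week replicates 3 and 4 as the kallikreins. None of the 5 was at 0 in all samples, 1 of 4 tested, Pmel, was lower at 3 weeks, and their part in the kallikrein result was not tested. This pattern was not particular to melanocyte markers. Among genes of KC differentiation, Krtdap had 4.25, 5.08, 57.6 and 76.0 RPKM at 1 week and Cdsn 15.2, 12.6, 47.5 and 80.2. Not every gene had it, as Spint2 was at 99.7, 107.9, 78.1 and 72.0 RPKM at 1 week. Fibroblast markers summed to between 2.30 and 4.65 RPKM over all samples, and the immune, endothelial and Merkel cell markers each to below 0.55, with the Langerhans cell marker Cd207 and the T cell marker Trdc without any read.

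Because RPKM is scaled to exon length, levels can be set side by side between genes. The summed RPKM of the 9 kallikreins was 122.4, 79.8, 312.5 and 451.7 at 1 week and 75.6, 96.4, 77.9 and 61.8 at 3 weeks. Replicate 2 of 1 week lay within the 3-week range, and the other 1-week samples lay above it. Klk7, Klk8 and Klk10 together made up between 80.5% and 94.9% of the sum in every sample.

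The shares of Klk7, Klk8, Klk9 and Klk10 in the kallikrein RNA separated the groups, unlike its summed level. The share of Klk6 overlapped, with 2.25% to 11.2% at 1 week and 2.91% to 5.67% at 3 weeks. So did that of Klk11, with 2.54% to 3.57% and 0.484% to 7.88%. The shares depend on each other and rest on the values that selected the members. Klk8 made up 51.8%, 58.4%, 30.3% and 24.6% of the sum at 1 week and 85.5%, 80.3%, 77.9% and 72.1% at 3 weeks, without overlap. The share of Klk7 was 7.36%, 6.33%, 23.9% and 29.8% at 1 week, and between 0.813% and 2.43% at 3 weeks. The share of Klk10 was between 26.2% and 32.6% at 1 week and between 8.01% and 15.4% at 3 weeks. That of Klk9 was between 1.72% and 3.95% at 1 week and between 0.671% and 1.11% at 3 weeks. In replicate 4 of 1 week Klk7 was the most abundant kallikrein and exceeded Klk8 1.21-fold, whereas in all other samples Klk8 exceeded Klk7. At 3 weeks the ratio of Klk8 to Klk7 lay between 32.0 and 88.6.

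Set against the inhibitor, the summed kallikrein RPKM was 27.6, 13.0, 16.1 and 13.7 times that of Spink5 at 1 week and 12.2, 16.5, 23.5 and 1.05 times at 3 weeks. These ranges overlapped, and replicate 4 of 3 weeks was the sample in which kallikrein and inhibitor RNA were nearly equal. The ratio of Klk7 to Spink5 was 2.03, 0.821, 3.85 and 4.09 at 1 week and 0.160, 0.226, 0.573 and 0.00857 at 3 weeks. All 1-week ratios lay above all 3-week ratios. These are ratios of RNA levels and do not measure protein or protease activity.

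**Figure D2:**
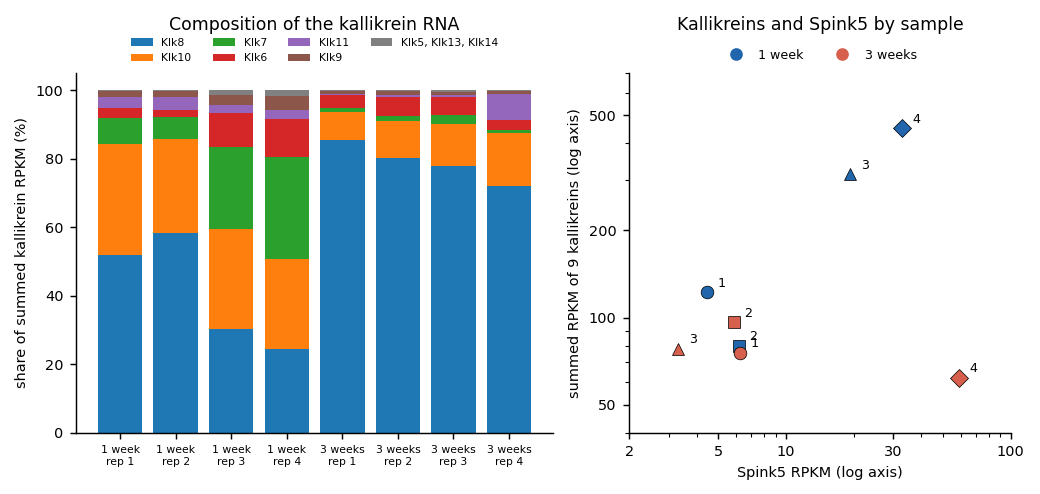
Left, share of each kallikrein in the summed RPKM of the 9 kallikreins (%), 1 bar per sample; Klk8 takes 24.6% to 58.4% at 1 week and 72.1% to 85.5% at 3 weeks. Right, summed kallikrein RPKM against Spink5 RPKM on log axes, with 1 point per sample, coloured by time and numbered by replicate; replicates 3 and 4 of 1 week are high in both, and replicate 4 of 3 weeks combines the highest Spink5 with the lowest kallikrein sum.

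The deposited tables also carry a number, and 3 numbers (46, 49 and 90) occur at both times. The labels do not say whether the number marks the shared batches of KCs, and the fold changes given so far do not pair the samples. With the 3 numbers as a block, the log2 fold changes of the 6 tested kallikreins lay between -5.55 (Klk7) and -0.44 (Klk8), and that of Spink5 was -0.019. Between the samples of the same number, Klk7 was 9.09-fold, 56.6-fold and 267-fold higher at 1 week, for numbers 46, 49 and 90. All 6 tested kallikreins were lower at 3 weeks for numbers 49 and 90, and 5 of 6 were lower for number 46, where Klk8 was 1.02-fold higher. Spink5 at 3 weeks was 1.40-fold, 0.302-fold and 1.78-fold its 1-week level.

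Within the cluster the differences did not follow position. Klk10, Klk9, Klk8, Klk7 and Klk6 follow each other, with log2 fold changes of -2.76, -3.24, -0.19, -5.37 and -2.44. The weakly detected Klk14, Klk13 and Klk5 lie at the ends. Of the other 15 genes within 100 kb of the cluster, 3 had enough reads to be tested. Ctu1, a tRNA-modifying enzyme, and Zfp719, a zinc finger gene, had log2 fold changes of -0.21 (SE 0.18, adjusted p = 0.417) and 0.21 (SE 0.20, adjusted p = 0.467) in edgeR's quasi-likelihood test with Benjamini-Hochberg adjustment. The opposite-strand transcript 2310002F09Rik rose in the same test by 1.51 on the log2 scale (SE 0.24, adjusted p = 0.00208), and its mean RPKM was 0.709 ± 0.155 at 1 week and 1.79 ± 0.288 at 3 weeks. This test used all its exon reads, unique or not.

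The overlap with 2310002F09Rik bears on how well the reads of some kallikreins can be assigned, since the sources used here do not say whether reads were counted by strand. Of the exon reads of Klk9, Klk10, Klk11 and Klk13, the 4 genes within its span, 15.6%, 21.6%, 21.0% and 15.3% were counted as unique. All of these unique reads crossed exon junctions, and 0 unique reads lay within an exon. In Klk5, Klk6, Klk7, Klk14 and Spink5 at least 99.97% of the reads were unique, and in Klk8 95.2%. Among words of 59 bases from their transcripts, none of those of Klk9, Klk10, Klk11 and Klk13 occurred in a transcript of another gene. Of the 1530 words of Klk8, 324 also occurred in 2310002F09Rik. Its 684 exon reads over all samples may thus include reads shared with Klk8, and its change in unique reads alone is not given here. Of the 1172 words of Klk14, 237 also occurred in 2310002F09Rik or other genes. With unique reads alone the log2 fold changes were -2.92 for Klk10 and -2.14 for Klk11, close to those of all exon reads, while Klk9 then had too few reads to be tested.

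**Figure D3:**
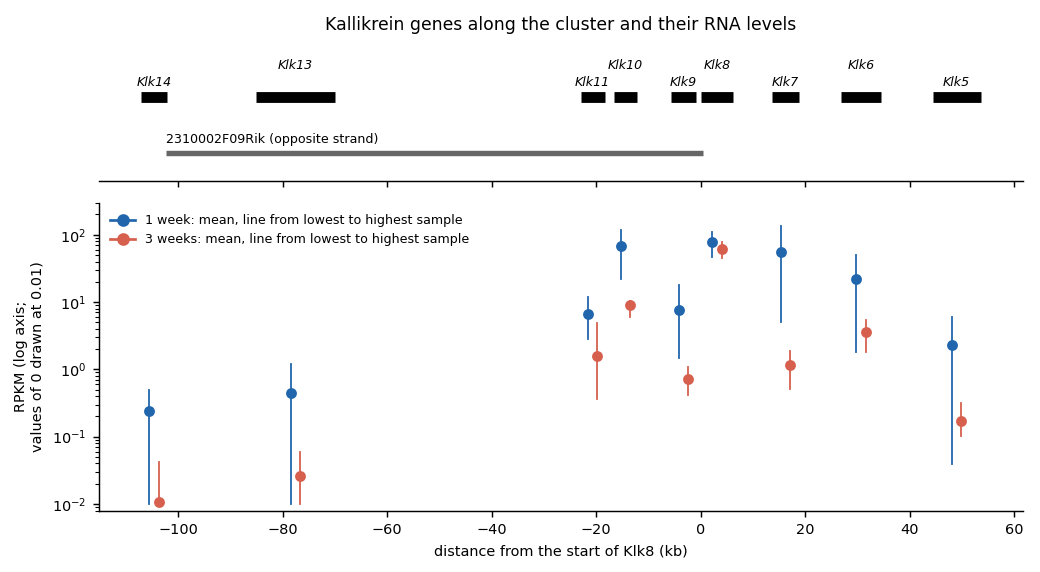
Top, the kallikrein genes on the plus strand and 2310002F09Rik on the opposite strand, to scale, as distance from the start of Klk8 in kb. Bottom, mean RPKM of each gene at 1 week (blue) and 3 weeks (red) on a log axis, with lines from the lowest to the highest of the 4 samples. Klk8 overlaps between the times, while its neighbours Klk7 and Klk9 are separated.

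Other members of both families were nearly silent. Of the 17 other Klk genes listed, 15 had no read in any sample, and Klk12 reached at most 5 reads in a sample. Of the 12 other Spink genes, 6 had no read, and Spink2, Spink12 and Spink10 reached 3 or more reads, with at most 10. Spink5 was thus the one Spink gene with enough reads to be tested.

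Genes that act around the kallikreins were read from fixed lists of 72 genes, of which 46 had enough reads. In edgeR's quasi-likelihood test with Benjamini-Hochberg adjustment over all genes, 9 of the 46 fell (17.0% of all tested genes did) and 7 rose (15.7% of all tested genes did). With a block by table number 18 fell, and without replicate 4 of 3 weeks 16 fell. The other 30 did not pass the test, and the median log2 fold change of the 46 was -0.01. The counts for the single lists below use the same test.

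Other protease inhibitors rose where they passed the test. Of 21 listed, 5 were tested, 3 rose and none fell, with a median log2 fold change of 1.03. Spint1, which encodes the matriptase inhibitor HAI-1, had RPKM values of 19.4, 20.8, 26.6 and 21.2 at 1 week and of 46.8, 47.1, 37.5 and 73.4 at 3 weeks. All 3-week samples lay above all of 1 week (log2 fold change 1.37, SE 0.19, adjusted p = 0.000984). Spint2, a related Kunitz-type inhibitor, rose from 89.4 ± 17.1 to 163 ± 13.3 RPKM (log2 fold change 1.03, SE 0.17, adjusted p = 0.00241). Serpine2, an inhibitor of thrombin and urokinase, rose from 1.61 ± 0.459 to 3.38 ± 0.941 RPKM (log2 fold change 1.24, SE 0.28, adjusted p = 0.00926), a call that was lost with a block by table number (adjusted p = 0.0916). Slpi and Cst6 did not pass the test.

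Among 11 other proteases of the epidermis, 9 were tested, 2 rose and 1 fell, with a median log2 fold change of 0.68. St14, which encodes matriptase and can activate kallikrein precursors, was at 32.8 ± 2.05 RPKM at 1 week and 35.0 ± 6.70 at 3 weeks (log2 fold change 0.24, SE 0.13, adjusted p = 0.181, and 0.0413 without replicate 3 of 3 weeks). Casp14, a caspase of cornification, rose from 2.10 ± 1.22 to 6.31 ± 1.17 RPKM (log2 fold change 1.76, adjusted p = 0.0107). Plau, which encodes urokinase, rose from 289 ± 64.8 to 592 ± 156 RPKM (log2 fold change 1.19, adjusted p = 0.00364). Asprv1, a retroviral-like aspartic protease that processes filaggrin, had RPKM values of 93.4, 38.2, 265 and 342 at 1 week and of 16.5, 39.0, 36.3 and 15.3 at 3 weeks. It fell by 2.60 on the log2 scale (SE 0.67, adjusted p = 0.0166), although its lowest 1-week sample lay within the 3-week range. The call was lost with a block by replicate number (adjusted p = 0.0552).

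Of 11 genes for desmosome proteins and other substrates, 7 were tested, 2 fell and none rose, with a median log2 fold change of -0.43. Dsg1a and Dsg1b encode mouse forms of desmoglein 1, a cadherin cleaved in shedding. Dsg1a fell from 1.43 ± 1.39 to 0.125 ± 0.0410 RPKM (log2 fold change -3.35, SE 0.84, adjusted p = 0.0150), and Dsg1b from 6.25 ± 5.72 to 0.999 ± 0.376 RPKM (log2 fold change -2.47, SE 0.74, adjusted p = 0.0310). They are near-identical copies, with 71.6% and 57.6% unique reads, so that the split of reads between them is uncertain. Dsg1b lost its call with a block by replicate number (adjusted p = 0.149). It also did so without replicate 3 or 4 of 1 week or without any 1 of the 3-week samples (adjusted p between 0.0523 and 0.0869). With limma, Dsg1b lost its call on log2(RPKM + 0.1) (adjusted p = 0.0653) and on log2(RPKM + 1) (0.0822). Dsg1a lost its call with limma on log2(RPKM + 1) (adjusted p = 0.0778). Cdsn, which encodes corneodesmosin, was at 38.9 ± 31.8 RPKM at 1 week and 9.43 ± 10.3 at 3 weeks and did not pass the test (log2 fold change -1.92, SE 0.79, adjusted p = 0.0921), but passed it with a block by table number (adjusted p = 0.00602) or replicate number (0.0155) and without replicate 4 of 3 weeks (0.0108). Dsg3, the desmoglein of the lower layers, had a log2 fold change of 0.00 (SE 0.22, adjusted p = 0.994).

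Of 7 receptors and signalling targets, 4 were tested, 1 rose and 2 fell, with a median log2 fold change of -0.60. F2rl1 encodes PAR2, a receptor that is activated by proteolytic cleavage and is a known target of epidermal kallikreins. It fell from 20.01 ± 6.92 to 8.69 ± 2.95 RPKM (log2 fold change -1.04, SE 0.32, adjusted p = 0.0342). Tslp, a cytokine of KCs induced downstream of PAR2, fell from 156 ± 64.6 to 3.52 ± 1.85 RPKM (log2 fold change -5.28, SE 0.51, adjusted p = 0.000317), with 19.4% unique reads. The call of F2rl1 was lost without replicate 3 or 4 of 1 week (adjusted p = 0.0900 and 0.0892), without replicate 1 of 3 weeks (0.0556) and with a block by replicate number (0.0884). F2rl2, which encodes PAR3, rose by 2.19 on the log2 scale (adjusted p = 0.0152), but 1.48% of its reads were unique.

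Genes of the granular layer and the cornified envelope were tested for 11 of 12, of which 3 fell and none rose, with a median log2 fold change of -0.93. Krtdap, a secreted differentiation-associated protein, fell from 35.7 ± 36.6 to 1.22 ± 0.644 RPKM (log2 fold change -4.68, SE 1.05, adjusted p = 0.00917). Krt1, a keratin of suprabasal cells, fell at a low level, from 0.907 ± 0.636 to 0.146 ± 0.0531 RPKM (log2 fold change -2.44, SE 0.59, adjusted p = 0.0132). Calm4, a calmodulin-like protein of the epidermis, also fell (log2 fold change -3.13, adjusted p = 0.0343), but none of its reads were unique. The call of Calm4 was lost without replicate 3 or 4 of 1 week or without replicate 1, 2 or 4 of 3 weeks (adjusted p between 0.0661 and 0.0993). It was also lost with a block by replicate number (0.0589) and with limma on log2(RPKM + 0.1) (0.0518) and log2(RPKM + 1) (0.0589). Replicates 1 and 2 of 1 week (8.99 and 7.68 RPKM) lay below replicate 3 of 3 weeks (9.96). All 10 transcription factors of late differentiation were tested, of which 1 rose and 1 fell, with a median log2 fold change of 0.07. Ovol1, a zinc finger repressor, fell from 8.99 ± 5.61 to 1.62 ± 0.619 RPKM (log2 fold change -2.33, SE 0.45, adjusted p = 0.00472). Nfat5, the osmosensitive factor that the study is about, rose from 1.36 ± 0.352 to 3.33 ± 1.37 RPKM (log2 fold change 1.43, SE 0.29, adjusted p = 0.00612). Its replicate 3 of 3 weeks (1.70 RPKM) lay within the 1-week range (0.949 to 1.73). Klf4, which is needed for barrier formation, had a log2 fold change of -0.66 (SE 0.26, adjusted p = 0.0801, and 0.0432 without replicate 4 of 3 weeks).

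**Figure D4:**
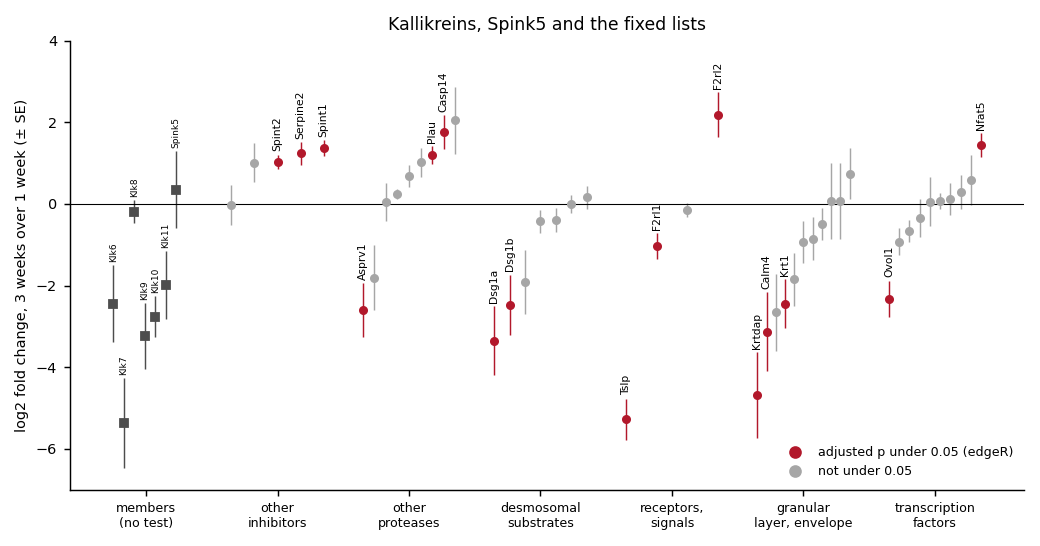
Log2 fold change, 3 weeks over 1 week, with its SE as bars, for the 7 tested members (squares, without a test) and the 46 tested genes of the fixed lists, 1 column per list. Red points have an adjusted p under 0.05 in edgeR and are named, grey points do not. The inhibitors that passed lie above 0, the desmosomal and granular genes that passed below it.

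The genes whose course over the 8 samples was nearest to the kallikreins were sought by the root mean square difference of centred log2 CPM from the median profile of the 6 tested kallikreins. Klk10 (0.23) and Klk9 (0.28) lay closest to this profile, and Klk7 (1.19) and Klk8 (1.28) farthest among the kallikreins. The profile was made from these same genes, so their closeness to it is no result. Among tested genes, 235 lay nearer to it than Klk6, 796 than Klk11, 1215 than Klk7 and 1969 than Klk8. It thus describes mainly Klk9 and Klk10. The 5 nearest other genes were Asprv1 (0.33), Dsg1a (0.34), the water and glycerol channel Aqp3 (0.35), the endoribonuclease Endou (0.38) and Prr9 (0.39), while the median over all tested genes was 1.55. Aqp3, for instance, had RPKM values of 6.20, 4.03, 13.1 and 19.1 at 1 week and of 1.41, 1.46, 1.60 and 0.893 at 3 weeks. Its 1-week samples stood in the order 2, 1, 3 and 4, as in most kallikreins. Since Aqp3 was picked for its closeness over these same samples, the shared order is a description only.

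Spink5 had other neighbours, and its own distance from the kallikrein profile was 1.68. The 5 genes nearest to Spink5 were Ivl (0.34), which encodes involucrin, the envelope protein gene Tchh (0.39), the sodium channel subunit Scnn1a (0.46), Lypd5 (0.48) and Ankrd35 (0.54), against a median of 1.44 over all tested genes. Ivl had RPKM values of 1.15, 0.985, 4.68 and 7.61 at 1 week and of 2.04, 1.11, 0.507 and 10.3 at 3 weeks. Replicate 4 of 3 weeks was thus the highest sample in Ivl as in Spink5, which follows from picking Ivl for its closeness to Spink5. No nearest gene was common to the kallikrein and the Spink5 profile.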

How the data were processed

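Poly(A) RNA of 8 KC samples was analysed, 4 after 1 week and 4 after 3 weeks, grouped by the deposited labels. The authors trimmed the reads and used version 12 of the CLC Genomics Workbench for alignment to GRCm38. The counts they deposited, 1 table per sample, are whole reads per gene on exons that the authors did not normalize. The deposited RPKM values are these reads divided by exon length and library depth, written with decimal commas. The annotation release and the use of strand are not given in the sources used here. Of the exon reads, 81.6% to 84.7% were unique, and introns took 1.48% to 2.38% of the reads on genes. No pair of replicates was alike within sampling noise (smallest chi-square per degree of freedom 15.5).

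Total exon reads were analysed with edgeR 4.0.16 in R 4.3.3 (filterByExpr, TMM, glmQLFit and glmQLFTest over all 8 samples, unpaired, Benjamini-Hochberg adjustment, threshold 0.05). The procedure was tested on simulated data. The members, the gene lists and the rules were chosen with earlier results of these data known. Named were all 10 members, other Klk and Spink genes with at least 3 reads in a sample, up to 4 genes per direction called in each list, F2rl1, St14, Cdsn, Dsg1a, Klf4 and Nfat5 in any case, genes called within 100 kb of the cluster, and the 5 genes nearest to each profile. Slpi, Cst6, Dsg3, Zfp719 and Ctu1 were named after their values were seen. Promoter windows came from RefSeq. Alternatives were DESeq2 1.42.0, upper-quartile normalization, no filter, a minimum of 10 reads in each sample, unique or whole-gene reads, limma 3.58.1 on log2(RPKM + 0.1) or log2(RPKM + 1), a block by replicate or by table number, and leaving out each sample. Protein sequences were not used here. Figures were drawn with matplotlib 3.10.9 in Python 3.11.15.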

Additional observations from a re-analysis of the deposited data

Results flagged for a closer look

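In 3 genes the highest of the 4 samples of 3 weeks was separated from the next by most of the group's range, and in each it was replicate 4. Klk11 was at 4.87 RPKM in this sample and at most at 0.539 in the others, so that the gap took 0.962 of the range. Spink5 was at 58.7 RPKM against at most 6.21 (0.948 of the range). Cdsn, the corneodesmosin gene, was at 24.7 RPKM against at most 6.04 (0.875 of the range). The gap was compared with Dixon's limit in 55 groups of 4 samples, of which chance passes about 1 in 20 if the groups are independent. The 3 flagged groups share the same high sample and are not independent. Whether chance gives 3 such groups therefore cannot be told from this count. For Klk11 and Spink5 the gap is a description, since their values were used to select them.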

How the results depend on the processing

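Over 10 other settings and the omission of each sample, Klk6, Klk7, Klk10 and Klk11 were lower at 3 weeks in every case, and Klk9 was so in the 16 cases in which it could be tested. Leaving out each sample moved the log2 fold change of Klk7 between -5.79 and -4.44, of Klk10 between -3.06 and -2.35, of Klk9 between -3.59 and -2.39, of Klk6 between -2.83 and -1.59, of Klk11 between -3.69 and -1.57, of Klk8 between -0.38 and 0.023 and of Spink5 between -1.45 and 1.01. Spink5 also turned negative with limma on log2(RPKM + 0.1) (-0.32) and log2(RPKM + 1) (-0.27) and with a replicate block (-0.093) or a block by table number (-0.019), and the cause was not tested. The count of members without overlap was 3 or 4 under all alternatives. Of the listed genes, 15 fell without a filter on low counts, where more genes were tested, 18 with a block by table number, and 6 to 16 when each sample was left out. Genes that rose over the whole table numbered 1313 and 1281 with limma, 1309 with the replicate block and 1316 with the block by table number. The correlations of deviations between samples of the same replicate number were -0.227, -0.146, -0.146 and 0.249. For the table numbers 46, 49 and 90 they were -0.227, 0.2 and 0.249. Numbers 46 and 90 join the same samples as replicates 1 and 4. Neither numbering thus clearly paired the samples, and both blocks are given for completeness. Depth limits Klk5, Klk13 and Klk14, which had at most 7 reads in any 3-week sample.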
